A study of Mus musculus with 12 samples.

Results

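TRBV2 chains of the T cell receptor (TCR) were followed across 3 sorted subsets of CD8+ T cells from mouse spleen. A cell was counted as TRBV2 when it was in the deposited cell table and its β chain (TRB) with the most unique molecular identifiers (UMIs, tags that mark single molecules) used the variable segment TRBV2. This rule found 3495 cells among 76281 cells with a TRB and 100540 cells in all. They fell into 1279 TRBV2 clonotypes when counted in each library, or 1242 distinct ones over the 6 libraries. A clonotype was a set of cells with the same TRB variable segment, joining segment and nucleotide sequence of the CDR3, the loop built across the junction of the segments. Of the distinct clonotypes, 1207 were in 1 library, 33 in 2 and 2 in 3. TRBV2 was chosen with its shares by library already known, so those shares are a description.

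The mice were wild-type C57BL/6. Over 14 days, 5 mice received 10 µg of an antibody to CD137 (clone 3H3) and 10 mice received 100 µg of a control immunoglobulin (Ig, clone HRPN), with 2 injections a week. CD137, also called 4-1BB, is a costimulatory receptor of activated T cells, and the control differs from the antibody in dose as well as in clone. All cells were sorted for high CD44, a marker of antigen experience. PD1 is an inhibitory receptor kept by T cells under lasting stimulation, and the sort called effector (Teff) was negative for it. Both other sorts were PD1+. The one labelled precursor exhausted (Tpex) was Slamf6+ and Tim3-, and the one labelled terminally exhausted (Tex) was Slamf6- and Tim3+. Gene expression and TCR chains were read in a library each for every population, so 12 samples describe 6 populations. Cells are not tied to single mice, so a clonotype of many cells may come from 1 mouse. With 1 library a group there is no replicate check, and no test was run. Intervals are exact Clopper-Pearson 95% intervals, or Newcombe intervals of a difference, and count sampling of cells alone, although cells that descend from 1 cell were not drawn separately. The labelled cell types could not be checked against marker genes, since no values per gene were used here.

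A TRB chain is made by joining a variable (V), a diversity (D) and a joining (J) segment in the developing T cell, with bases trimmed from and added to the ends. The CDR3 formed at this junction touches the antigen peptide, and its exact sequence is used to mark the descendants of a single cell. T cells that meet antigen divide, so a clonotype found in many cells is a sign of expansion. TRBV2 lies near the 5′ end of the β locus. In GENCODE M21 (GRCm38, also called mm10), Trbv2 spans 41047340 to 41047995 of chromosome 6 on the plus strand. Its first exon, from 41047340 to 41047604, holds a 5′ untranslated part and coding sequence from 41047556, and the second, from 41047701 to 41047995, is all coding. Trbv3 starts 295 bases after it. Trbd1, the nearer D segment, starts 485 kb downstream, and Trbj2-1 spans 41542754 to 41542803.

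The germline pieces and the clonotypes on which the results turn are printed to show how few bases of each CDR3 are not germline, and each clonotype gets a letter for what follows. Sequences are 5′ to 3′. Germline pieces are from GENCODE M21 and clonotypes are from the deposited table. In the clonotypes, capitals mark the bases between the longest match to germline TRBV2 and the longest match to the germline J, which can hold D bases and added bases alike.
TRBV2 germline CDR3 start: tgtgccagcagccaaga
TRBD1 germline: gggacagggggc
TRBD2 germline: gggactgggggggc
TRBJ2-1 germline CDR3 end: taactatgctgagcagttcttc
Clonotype A (TRBJ2-1, the largest in control Tpex and in control Tex): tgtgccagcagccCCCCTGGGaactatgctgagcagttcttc
Clonotype B (TRBJ1-3, the second largest in control Tex): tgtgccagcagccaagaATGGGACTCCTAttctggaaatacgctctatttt
Clonotype C (TRBJ1-1, in both control PD1+ subsets): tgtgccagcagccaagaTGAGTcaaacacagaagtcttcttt
Clonotype D (TRBJ2-1, in both control PD1+ subsets): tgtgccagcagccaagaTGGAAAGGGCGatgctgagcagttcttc
Clonotype E (TRBJ2-1, in both control PD1+ subsets): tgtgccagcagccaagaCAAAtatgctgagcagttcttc
Clonotype F (TRBJ2-7, in control Tex and not Tpex): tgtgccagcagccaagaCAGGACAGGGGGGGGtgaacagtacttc
Clonotype G (TRBJ2-7, in control Tpex and not Tex): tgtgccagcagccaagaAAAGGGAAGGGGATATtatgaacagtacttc
Clonotype H (TRBJ1-4, the largest in anti-CD137 Teff): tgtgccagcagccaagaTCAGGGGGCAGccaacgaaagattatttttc
Clonotype K (TRBJ2-7, the largest in anti-CD137 Tex): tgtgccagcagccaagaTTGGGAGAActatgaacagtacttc
Clonotype L (TRBJ2-7, in all 3 anti-CD137 subsets): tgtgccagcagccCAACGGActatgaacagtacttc

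The printed clonotypes differ in how much of the V end they keep and in what lies before the J. A and L break off at base 13 of the 17 germline V bases, and the other 8 keep all 17. Capitals number 4 in E and 16 in G. Clonotype F shares a run of 10 bases with TRBD1 and H a run of 8, against a median of 6 for the longest run shared with either D segment over all 1279 TRBV2 clonotypes. C and E share no run longer than 2 with either.

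TRB chains were read in 79.5 to 87.5% of the cells of the control libraries and of anti-CD137 Teff, but in 45.3% of anti-CD137 Tpex and 59.0% of anti-CD137 Tex cells. Anti-CD137 Tpex had 11950 TRB barcodes outside the cell table, against 5980 cells with a TRB inside it. Outside it were also 2960 in anti-CD137 Tex, 1838 in control Tpex and 276 in control Tex. These are left out of the main shares. With them, the TRBV2 share by cells, anti-CD137 minus control, was -9.58 points in Tpex and -11.8 in Tex. The median UMI count of all transcripts per cell lay between 1950 in anti-CD137 Tpex and 5619 in control Tex, and total UMIs between 31252414 and 126261864 a library. Among the 95046 distinct barcodes of the cell table, 5336 were in 2 or more libraries. Over all libraries the median TRBV2 cell had 4554 transcript UMIs, against 4198 for other TRB cells, while in control Tpex it had 4348 against 4668. A TRA (the α chain) was paired with the TRB in 88.1% of TRBV2 cells over all libraries, against 84.6% of other TRB cells. In control Tpex alone the direction was the other, at 86.1% against 89.6%.

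In the control PD1+ subsets, TRBV2 cells were several times more frequent than in any other library, and clonotype A made up most of them. TRBV2 was the V segment of 458 of 20596 TRB cells in control Teff, which is 2.22% (2.03 to 2.43%). It was 10.9% in control Tpex (1228 of 11258, 10.3 to 11.5%) and 12.8% in control Tex (1099 of 8575, 12.1 to 13.5%). With anti-CD137 it was 2.45% in Teff (590 of 24035, 2.26 to 2.66%), 1.09% in Tpex (65 of 5980, 0.840 to 1.38%) and 0.942% in Tex (55 of 5837, 0.711 to 1.22%). In the control both PD1+ subsets stood above Teff and with anti-CD137 both stood below it, and no PD1+ interval of one treatment overlapped one of the other. Anti-CD137 minus control was -9.82 percentage points in Tpex (-10.5 to -9.18) and -11.9 in Tex (-12.6 to -11.1). In Teff the difference was 0.231 points, with an interval from -0.0540 to 0.514. The anti-CD137 PD1+ libraries were also the shallowest and had the fewest cells with a TRB. In cells above their library's median UMI count the difference was -7.73 points in Tpex and -12.1 in Tex, and the part of TRB detection was not tested.

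Without the largest TRBV2 clonotype of each library, the libraries lay closer together. The TRBV2 shares were then 2.21% in control Teff, 2.13% in Tpex and 3.29% in Tex, and 2.42, 1.04 and 0.840% in the same order with anti-CD137. Control Tpex was then no longer above control Teff, the difference being -0.0822 points (-0.425 to 0.275). Both anti-CD137 PD1+ libraries stood below their controls, with differences of -1.09 points in Tpex (-1.47 to -0.693) and -2.45 points in Tex (-2.92 to -1.97). The Tex difference was -1.41 points (-1.81 to -1.02) when the 3 largest TRBV2 clonotypes of each library were left out.

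Counting each clonotype once made the libraries more alike. TRBV2 made up 2.31% of 19389 clonotypes in control Teff, 2.47% of 5666 in Tpex and 3.33% of 1112 in Tex. With anti-CD137 the values were 2.50% of 22811, 1.62% of 3095 and 2.59% of 1315. Anti-CD137 minus control was then -0.855 points in Tpex (-1.46 to -0.215), and in Tex the interval of the difference held 0 (-0.742 points, -2.20 to 0.661). Among clonotypes of at least 2 cells the Tex difference was -2.46 points and its interval did not hold 0 (-4.54 to -0.595). In the plot of shares by library, the wide gap by cells between the treatments in the PD1+ subsets is largely lost once clonotypes are counted once.

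**Figure D1:**
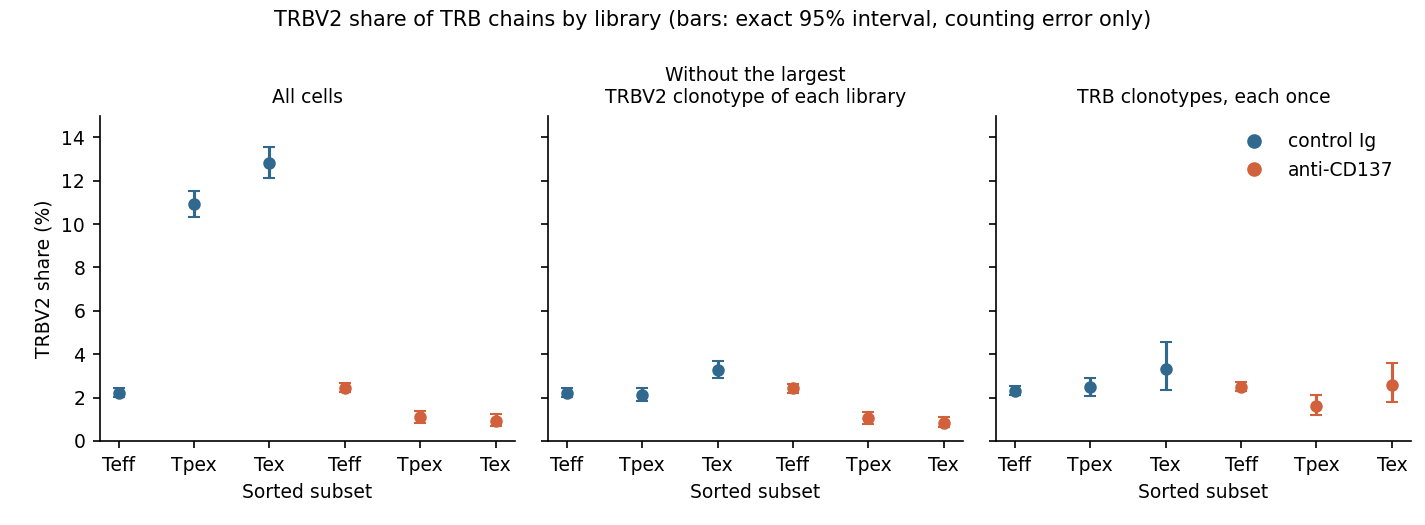
TRBV2 share of TRB chains (y axis, percent) in the 6 libraries by cells, by cells without the largest TRBV2 clonotype of each library, and by clonotypes, with exact 95% intervals as bars. By cells the control Tpex and Tex libraries stand at 10.9% and 12.8%, and by clonotypes all 6 libraries lie between 1.62% and 3.33%.

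Clonotype A, the largest TRBV2 clonotype, was found in the control libraries and in no anti-CD137 library. It numbered 1010 cells in control Tpex, which is 82.2% of the TRBV2 cells and 8.97% of all TRB cells there (8.45 to 9.51%). In control Tex it numbered 845 cells, 76.9% of TRBV2 and 9.85% of all TRB cells (9.23 to 10.5%). Its share of TRB cells was thus close in both PD1+ subsets, 1.10-fold higher in Tex. Control Teff held 2 cells of it, with 5 and 7 TRB UMIs and both in deposited cluster 6, a share of 0.00971%. Neither of their barcodes carried it in a PD1+ library. None of the 24035, 5980 and 5837 TRB cells of anti-CD137 Teff, Tpex and Tex carried it. A floor of 3 cells a library would be a share of 0.0125% in anti-CD137 Teff, 0.0502% in Tpex and 0.0514% in Tex. The control share of clonotype A was 179 times this floor in Tpex and 192 times in Tex. The exact upper limits for a count of 0 were higher, at 0.0153% in anti-CD137 Teff, 0.0617% in Tpex and 0.0632% in Tex. The ratios to the floor are therefore not lower bounds.

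One α chain (TRA) went with clonotype A in nearly every cell. Of 1642 cells with a TRA, 1633 (99.5%) carried TRAV6-7-DV9 joined to TRAJ43, with this CDR3, shown because it marks the pair.
TRA of clonotype A (TRAV6-7-DV9, TRAJ43): tgtgctctgaggaacaatgccccacgattt
A further 126 barcodes with clonotype A, 118 of them in control Tpex, were outside the cell table and are not counted. Of its 1855 distinct barcodes, 2 carried it in 2 or more libraries. In the CDR3 of clonotype A, 13 bases matched TRBV2 and 21 matched TRBJ2-1, with 8 bases between them. No other TRBV2 clonotype of any library had a translated CDR3 that differed from it by 1 amino acid. Among other V segments such neighbours numbered 11 clonotypes in control Teff, 6 in control Tpex and 0 in control Tex, and 10, 2 and 2 with anti-CD137. All 17 in the control were single cells, and the neighbour with the most cells was a TRBV5 clonotype of 7 cells in anti-CD137 Tex.

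In control Tex, 24 cells carried the chain of clonotype A beside another TRB, and in all 24 that other chain was also TRBV2. The other chain was that of clonotype C or D in 7 cells each and that of E or F in 5 cells each. Clonotype A had more UMIs than the other chain in 7 of the 7 cells with C and in 0 of the 7 with D, so the first are counted under A and the second under D. In every one of the 24 cells the α chain was the one that the other clonotype showed on its own. The single-TRB cells of C, D, E and F carried that same α chain in 37 of 37, 23 of 23, 7 of 7 and 22 of 22 paired cells. The α chain of clonotype A was in 0 of the 24. The 222 control Tex cells of other V segments with 2 TRBs held the chain of clonotype A in no case. The median of the 24 cells was 6997.5 transcript UMIs, against 5694 for all TRBV2 cells of control Tex. Whether these droplets held 1 cell with both chains or RNA of several cells was not tested. Control Tpex had no cell counted as TRBV2 with 2 TRBs, against 7.20% of cells of other V segments. That 0 depends on the rule of the most UMIs. A further 19 control Tpex cells held TRBV2 beside a TRB of another segment. In all 19 TRBV2 had fewer UMIs, so they are counted under the other segment.

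Below clonotype A, several control TRBV2 clonotypes had more cells in Tex than in Tpex. Of 162 TRBV2 clonotypes in control Tpex or Tex, 15 were in both. Of the 14 besides A, 8 had more cells in Tex, 2 had more in Tpex and 4 had 1 cell in each. Of 524 clonotypes of other V segments in both, 197 had more cells in Tex, 194 more in Tpex and 133 as many. Clonotype B numbered 8 cells in Tpex and 62 in Tex, or 0.0711% (0.0307 to 0.140%) and 0.723% (0.555 to 0.926%) of TRB cells. Clonotype C numbered 8 and 30 cells, and its share was 4.92-fold higher in Tex with intervals that do not overlap. Clonotype D numbered 1 and 29, or 0.00888% (0.000225 to 0.0495%) and 0.338% (0.227 to 0.485%), and E numbered 4 and 13. D and E are named after their values were seen. The 2 with more cells in Tpex had 7 and 4 cells and 2 and 1 cells in Tpex and Tex, and their intervals overlapped. F was in 33 control Tex cells and 0 Tpex cells, and G in 9 Tpex and 0 Tex cells.

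These clonotypes also had steady partners. C was with TRAV12N-2 and TRAJ12 in 37 of 37 paired cells, F with TRAV9-4 and TRAJ12 in 26 of 26, and G with TRAV6N-6 and TRAJ30 in 7 of 7. B had 2 different α chains, and TRAV17 with TRAJ45 was in 55 of its 66 paired cells. B, C, F and G were each absent from the anti-CD137 libraries and from control Teff, as were most clonotypes. As amino acid sequences with the same J, 2.16% of control TRBV2 CDR3s were also found with anti-CD137, against 6.50% for other V segments. In control Teff were 2 of 140 TRBV2 clonotypes of control Tpex (1.43%, against 3.13% of others). For control Tex it was 1 of 37 (2.70%, against 5.21%).

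With anti-CD137, no TRBV2 clonotype exceeded 8 cells in any subset. The largest in Tex was K with 6 cells, 4 of them in cluster 3, followed by 3 TRBJ2-7 clonotypes with 5 cells each, L among them. In Tpex the largest had 3 cells, and a TRBJ2-7 clonotype of 3 Tpex cells and 1 Tex cell was with TRAV11 and TRAJ18, the α segments of invariant natural killer T cells, in 3 of its 4 paired cells. L was found in all 3 anti-CD137 subsets, with 2 cells in Teff, 2 in Tpex and 5 in Tex. Its α chain was TRAV6-7-DV9 with TRAJ52 in 5 of 7 paired cells. Of 74 TRBV2 clonotypes in anti-CD137 Tpex or Tex, 10 were in both. Of these, 2 had more cells in Tex, 4 had more in Tpex and 4 had 1 cell in each. Of 444 on other V segments, 196 had more cells in Tex, 134 more in Tpex and 114 as many. H, the largest in Teff with 8 cells, lay in cluster 6 in 5 of them and paired with TRAV6-3 and TRAJ22 in 7 of 7 cells. In control Teff the largest TRBV2 clonotype had 3 cells and the second 2.

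**Figure D2:**
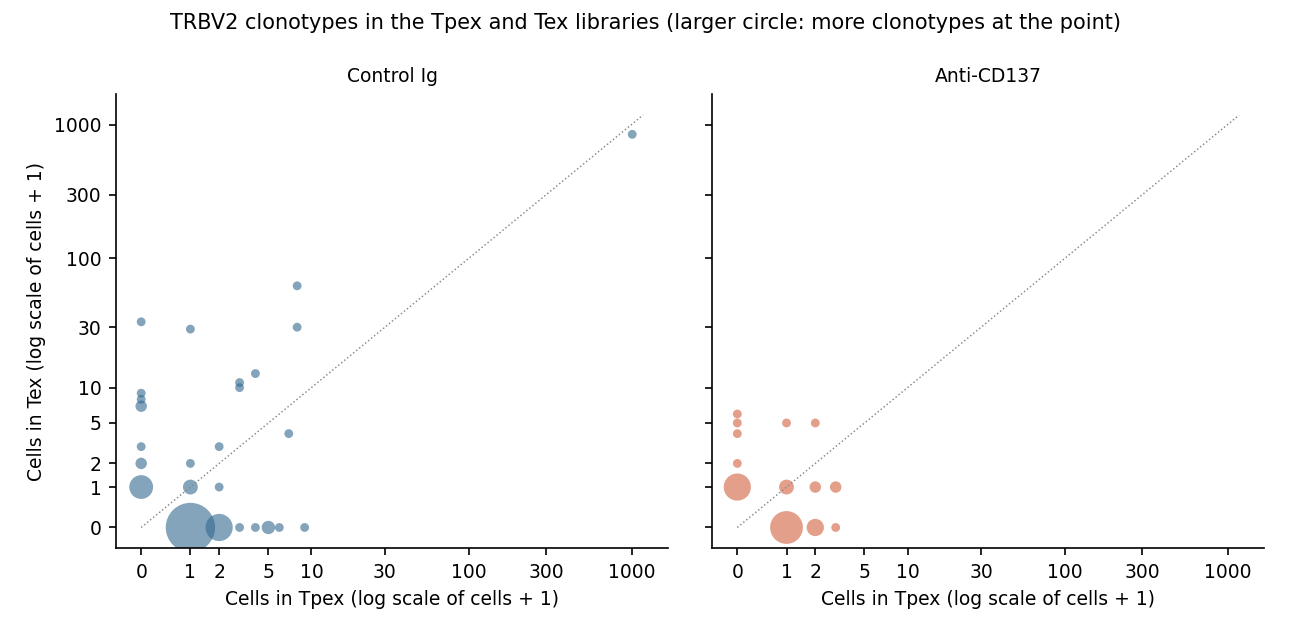
Cells of each TRBV2 clonotype in the Tpex library (x axis) and the Tex library (y axis) of the control and of anti-CD137, on log scales of cells + 1, with circle area rising with the number of clonotypes at a point and a dotted line of equal numbers. The control has the clonotype of 1010 and 845 cells at the far corner and several of 10 to 62 Tex cells above the line, and no anti-CD137 clonotype exceeds 6 cells in either library.

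Expansion was compared as the share of clonotypes with 2 or more cells. In control Tex, 18 of 37 TRBV2 clonotypes (48.6%, 31.9 to 65.6%) had 2 or more cells, against 46.1% of other clonotypes, and in control Tpex 36 of 140 (25.7%, 18.7 to 33.8%) against 20.5%. With anti-CD137 the TRBV2 shares were lower than those of other segments and the intervals did not overlap. In Tpex 12 of 50 (24.0%, 13.1 to 38.2%) had 2 or more cells, against 41.0% (39.2 to 42.7%), and in Tex 6 of 34 (17.6%, 6.76 to 34.5%), against 44.4% (41.7 to 47.2%). In Teff the shares were 2.24% against 4.64% in the control and 1.93% against 3.17% with anti-CD137, and the control intervals did not overlap. Anti-CD137 Tex thus held 1.62 cells per TRBV2 clonotype, against 4.51 for other segments. In control Tex the TRBV2 value was 29.7, against 6.95 for other segments. Without the largest TRBV2 clonotype it was 7.06, but no clonotype was left out of the value of other segments.

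The overlap of TRBV2 clonotypes between subsets was compared with that of other segments. In the control, 15 of 37 Tex clonotypes were also in Tpex (40.5%, 24.8 to 57.9%), against 48.7% of other clonotypes. With anti-CD137 the value was 10 of 34 (29.4%, 15.1 to 47.5%), against 34.7%. Each interval of the difference held 0. Of control Teff clonotypes, 2 of 447 were in Tpex (0.447%, 0.0542 to 1.61%), against 0.913% of other clonotypes. With anti-CD137 it was 1 of 571 (0.175%, 0.00443 to 0.972%), against 0.679%. The intervals of these differences held 0 too.

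Against the other V segments, TRBV2 had the largest control-to-antibody ratio of cell shares in both PD1+ subsets. Segments with at least 1% of either library were compared. In Tpex the share in the control was 10.0 times that with anti-CD137, the highest of 19 segments, followed by TRBV5 at 3.5, and the median segment stood at 0.781. In Tex the ratio was 13.6, the highest of 20, again followed by TRBV5 at 3.05. Segments at least 1.5-fold lower with anti-CD137 were 10.5% of those in Tpex and 15% of those in Tex by cells, TRBV2 among them. Those at least 1.5-fold higher were 21.1% in Tpex and 45% in Tex. By clonotypes 5% were lower in each, and 15% higher in Tpex and 10% in Tex. TRBV2 was then the highest of 20 in Tpex at 1.53 and only 4th in Tex at 1.29, while TRBV17 led there at 2.07. In Teff no segment differed by 1.5-fold, 0% by cells and by clonotypes, and TRBV2 stood at 0.906.

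The V segments whose shares followed those of TRBV2 most closely over the 6 libraries differed between cells and clonotypes. Pearson's r was taken on the log2 share over 6 libraries, 3 of each treatment, for 21 other segments, and is given as a description. By cells it was 0.75 for TRBV5, then 0.21 for TRBV12-2 and 0.17 for TRBV30. TRBV5 stood at 4.0, 14.0 and 27.7% in control Teff, Tpex and Tex and at 3.77, 4.01 and 9.08% with anti-CD137. It too was higher in the control PD1+ libraries, but with anti-CD137 its PD1+ shares were not below its Teff share. By clonotypes the order was TRBV19 (0.82), TRBV5 (0.56) and TRBV20 (0.49). TRBV2 ranked 2nd of 22 segments by cells in control Tpex and Tex, and between 16th and 20th in the other 4 libraries.

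The deposited clusters, numbered 0 to 8, group cells by gene expression and are called by number, since no gene values were used to name them. TRBV2 cells lay in the same main clusters as the other cells of their library. In control Tpex, 88.4% of TRBV2 cells were in cluster 1, against 87.6% of other TRB cells, and in control Tex 87.7% were in cluster 3, against 88.8%. Teff cells of TRBV2 lay in clusters 0 and 2, at 45.2 and 43.7% in the control and 43.4 and 46.1% with anti-CD137, each within 2 points of other cells. Clusters 0 to 5 were compared in each library. Over these 36 pairs of library and cluster, the interval of the difference lay above 0 in 8.33% and below 0 in 8.33%, and all 6 such pairs were in control Tpex or anti-CD137 Tex. Without the largest clonotype 2 of the pairs had an interval without 0, both in anti-CD137 Tex. With each clonotype counted once per cluster 1 did, cluster 4 of control Tpex. Outside these pairs, cluster 6 held 14 of 590 TRBV2 cells of anti-CD137 Teff (2.37%, 1.30 to 3.95%), against 4.47% of other cells (4.21 to 4.74%), and 1.55% without clonotype H (0.709 to 2.92%). Counted once per cluster, the values were 1.37% (0.595 to 2.69%) against 2.83% (2.62 to 3.06%), and the intervals overlapped. In control Teff the direction was the other, with 3.28% of TRBV2 cells (1.84 to 5.34%) against 2.19% (1.99 to 2.40%). Cluster 6 is named after its values were seen.

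In control Tpex the difference in cluster 3 was seen in clonotype A and not in the other TRBV2 clonotypes. Cluster 3, the main cluster of control Tex, held 75 of its 1010 Tpex cells, 7.43% (5.89 to 9.22%). Other TRBV2 clonotypes had 4 of 218 there (1.83%, 0.502 to 4.63%) and other V segments 280 of 10030 (2.79%, 2.48 to 3.13%). Cells of clonotypes of 10 or more cells on other V segments had 4.52% in it (3.71 to 5.44%). The other Tpex clonotypes with over 100 cells, both on TRBV5, had 5.14% (3.76 to 6.84%) and 6.51% (3.61 to 10.7%). Both of these intervals overlap that of clonotype A. Clusters 0 and 5 held 0 of the 1010 cells, against 3.47 and 3.42% of cells of other V segments. Among their clonotypes of 10 or more cells these clusters held 1 and 24 of 2325 cells (0.0430 and 1.03%), so a share near 0 in cluster 0 was also seen there. Cluster 4 held 15 of the 1010 cells (1.49%, 0.834 to 2.44%), 2 of the 218 other TRBV2 cells (0.917%) and 0.259% of cells of other V segments (0.169 to 0.380%). Among clonotypes of 10 or more cells on other V segments it held 0.602% (0.330 to 1.01%), which overlaps the interval of clonotype A. The TRBV5 clonotypes with over 100 cells had 0.935 and 0.465% there. Counted once per cluster, 3 TRBV2 clonotypes were in cluster 4, and the difference was 1.64 points (0.0710 to 5.30). TRBV2 cells made up 22.0% of the TRB cells of cluster 3 in control Tpex (17.8 to 26.7%), and 1.41% without the largest clonotype. Among cells above the library's median UMI count, 18.3% of the largest clonotype (14.5 to 22.6%) and 5.26% of other V segments lay in cluster 3. In control Tex clonotype A had 86.9% of its cells in cluster 3 and 11.2% in cluster 4. Across the 7 other Tex clonotypes of 100 or more cells, the cluster 4 share ran from 2.33 to 16.1%.

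In anti-CD137 Tex, TRBV2 cells lay more in cluster 3 and less in cluster 4 than other cells. Of 55 cells, 23 were in cluster 3 (41.8%, 28.7 to 55.9%), against 21.4% of 5782 other cells (20.3 to 22.5%), and 30 in cluster 4 (54.5%, 40.6 to 68.0%), against 77.6%. The cluster 3 share was 20.4 points higher (7.23 to 34.6), and 17.4 points higher without the 6 cells of the largest clonotype (3.78 to 32.4). Counted once per cluster, TRBV2 clonotypes had 35.9% in cluster 3 against 33.0%, a difference of 2.89 points, with an interval that held 0. Their cells had a median of 4154 transcript UMIs against 3544. Among cells above the library's median the cluster 3 shares were 59.0 and 35.5%. In anti-CD137 Tpex, 57 of 65 TRBV2 cells were in cluster 1 and 7 in cluster 5, and each interval of the difference held 0.

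**Figure D3:**
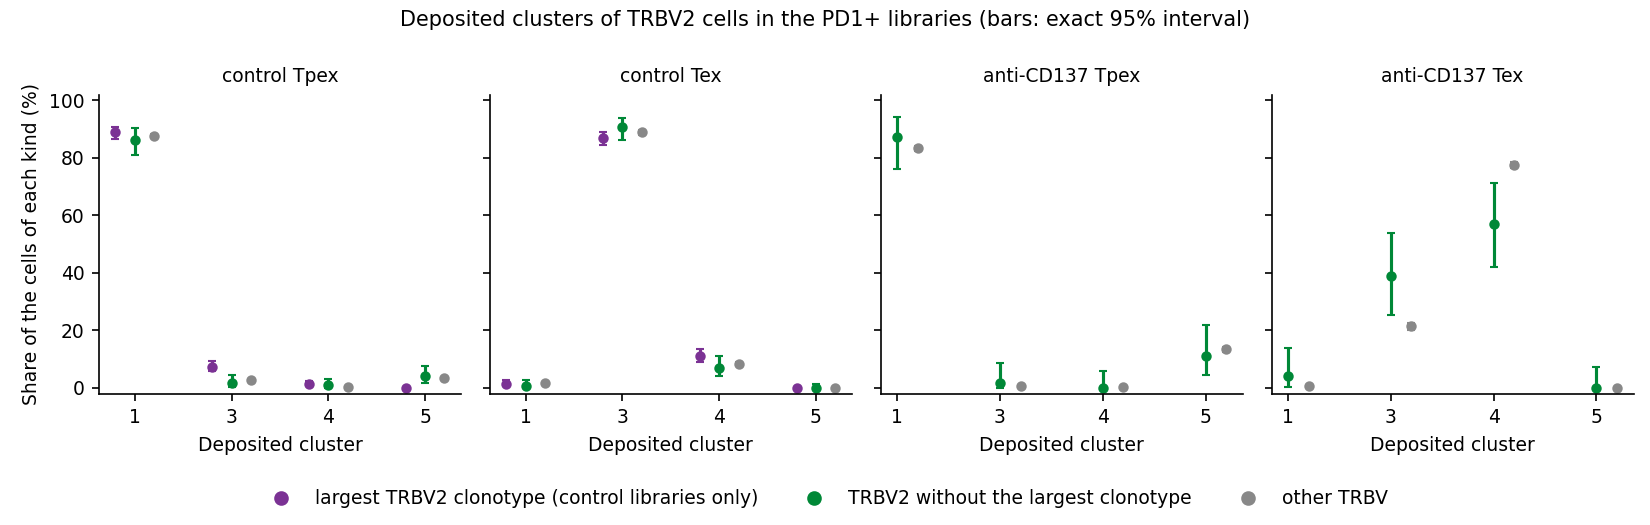
Share of cells (y axis, percent) in deposited clusters 1, 3, 4 and 5 (x axis) in the 4 PD1+ libraries, for the largest TRBV2 clonotype, for TRBV2 without the largest clonotype and for other V segments, with exact 95% intervals as bars. In control Tpex the largest clonotype stands higher in cluster 3 than the other groups shown, at 7.43%. Large clonotypes of other V segments are not shown apart. In anti-CD137 Tex TRBV2 cells stand lower in cluster 4 than other cells.

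TRBV2 clonotypes had longer CDR3s than those of other V segments in all 6 libraries. The mean was 14.65 ± 1.5 amino acids (SD, n = 1279 clonotypes) against 13.90 ± 1.45 (SD, n = 52109), a difference of 0.747. It was the longest mean of 22 V segments with at least 100 clonotypes, ahead of TRBV5 at 14.54 ± 1.36 and TRBV1 at 14.30 ± 1.37, and TRBV30 had the shortest, 12.98 ± 1.5. The difference of 0.747 from other segments is smaller than the SD among TRBV2 clonotypes. Within libraries the difference ran from 0.617 amino acids in control Teff to 0.926 in control Tpex. The most frequent length was 15 amino acids for TRBV2 (31.4% of clonotypes) and 14 for other segments (31.5%). By cells this was not seen in control Tpex and Tex. The largest clonotype has 14 amino acids, and 86.6% of TRBV2 cells in control Tpex and 82.6% in control Tex had that length, against 21.4 and 35.1% of their clonotypes.

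**Figure D4:**
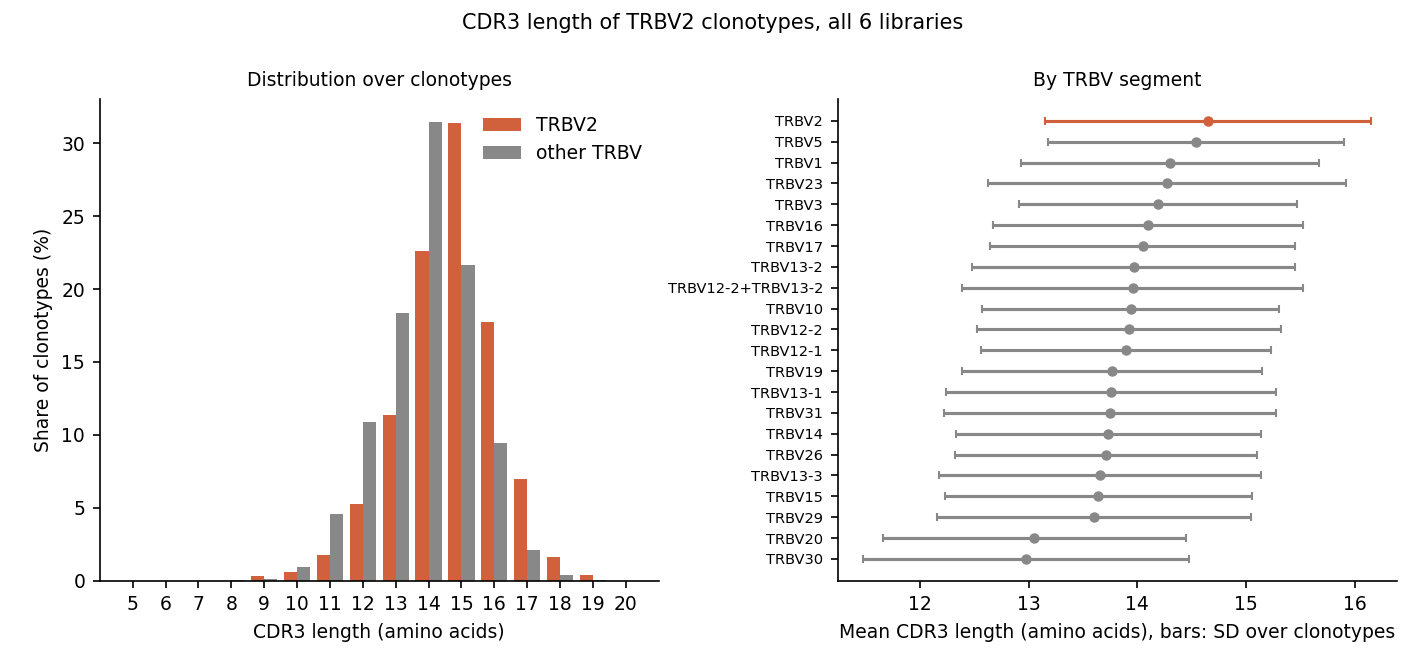
Left, share of clonotypes (y axis, percent) by CDR3 length in amino acids for TRBV2 and other V segments; right, mean length by V segment with SD over clonotypes as bars, for 22 segments of at least 100 clonotypes. TRBV2 peaks at 15 amino acids and other segments at 14, and TRBV2 has the longest mean, 14.65.

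Most TRBV2 junctions kept the whole germline end of the segment. All 17 germline CDR3 bases were present in 771 of 1279 clonotypes (60.3%), with a mean of 15.83 ± 1.76 bases (SD). Between V and J lay 10.00 ± 3.76 bases and the J part was 18.12 ± 3.15 bases. Accordingly 1035 clonotypes (80.9%) began with the 5 amino acids that germline TRBV2 encodes at the start of the CDR3, among them B to H and K. By library this share lay between 80.0% in control Tpex and 86% in anti-CD137 Tpex. The residue that follows was aspartate in 49.1% of these and glutamate in 27.2%. Clonotypes A and L, with their 13 germline V bases, belonged to the 15.9% of clonotypes that kept 13 or fewer, and have proline at the fifth position as do 8.37% of clonotypes. Because of A, the germline start was in 15.1% of the TRBV2 cells of control Tpex and 22.1% of those of control Tex, against 80.8% in control Teff and 78.5 to 81.8% in the anti-CD137 libraries.

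TRBV2 joined the J segments in nearly the proportions of other V segments. The J segments lie in 2 clusters, each behind its own D segment. TRBJ1 segments were used by 426 of 1279 TRBV2 clonotypes (33.3%, 30.7 to 36.0%) and by 31.4% of others, a difference of 1.88 points (-0.729 to 4.57). The most used were TRBJ2-7 (22.5% against 21.1%), TRBJ2-5 (12.1% against 11.7%) and TRBJ2-1 (11.7% against 14.0%). Of 12 J segments, 8.33% were at least 1.5-fold higher with intervals apart and 0% lower. The 1 higher was TRBJ1-6, at 4.69% against 2.78% (2.64 to 2.93%), and its share was above that of other segments in all 6 libraries; the highest, 8.11% against 2.88% in control Tex, rests on 3 clonotypes. By cells TRBJ1 segments made up 17.5% of TRBV2 cells, since the largest clonotype uses TRBJ2-1. In anti-CD137 Tex, 14 of 34 clonotypes used TRBJ2-7 (41.2%, 24.6 to 59.3%), against 20.1% of other clonotypes there. This library is named after its values were seen.

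The α chain partners of TRBV2 were counted over 1151 paired clonotypes, each TRB and TRA pair once a library. The most used TRAV segments were TRAV12-2 (6.17%, 4.85 to 7.72%), TRAV12D-3 (5.65%), TRAV13-1 (4.78%), TRAV6D-6 (4.08%) and TRAV3N-3 (3.30%). The same segments made up 4.96, 4.73, 3.69, 3.47 and 3.90% of 46942 other pairs. Of 42 TRAV segments, 4.76% were at least 1.5-fold higher with intervals apart and 0% lower. They were TRAV7D-4, at 1.13% (0.603 to 1.92%) against 0.426%, and TRAV13-4-DV7, at 1.82% (1.13 to 2.78%) against 0.799%. TRAV7D-4 had 0 pairs in control Tex, anti-CD137 Tpex and anti-CD137 Tex, and was above other pairs in the remaining libraries. Of the 21 pairs with TRAV13-4-DV7, 12 were in anti-CD137 Teff. It was 1.01% against 0.738% in control Teff, had 0 pairs in control Tex, and was above other pairs in the rest. TRAV6-7-DV9, the partner of the largest clonotype, was 2.35% of TRBV2 pairs against 1.52% when each pair counted once, with intervals that overlapped.

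Among TRAJ segments, TRAJ22 (6.60%), TRAJ26 (5.91%) and TRAJ49 (4.43%) were the most used by TRBV2, against 7.95, 5.10 and 4.24% of other pairs. Of 39 compared, 5.13% were higher and 5.13% lower by the same rule. TRAJ52 was the partner of 4.0% of TRBV2 pairs (2.94 to 5.30%) against 1.55%, a ratio of 2.57, and was above the share of other pairs in all 6 libraries, at 3.03 to 6.25% against 1.01 to 1.85%. In control Tex, anti-CD137 Tpex and anti-CD137 Tex it rests on 2 pairs each, with intervals that include the share of other pairs. TRAJ24 stood at 2.52% against 1.19%. TRAJ40 was lower, at 1.65% (0.997 to 2.57%) against 2.87%, and TRAJ30 at 3.30% against 5.18%. By cells, a single pair filled the control PD1+ libraries. TRAV6-7-DV9 made up 82.6% of paired TRBV2 cells in control Tpex and 76.1% in control Tex. Without the largest clonotype the leading TRAV was TRAV12N-2 in Tpex (12.2%) and TRAV17 in Tex (23.7%), the latter the segment of B. In the Teff libraries no TRAV exceeded 7.69% of paired TRBV2 cells.

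Few TRBV2 CDR3s were found in both treatments. As amino acid sequences with the same J, 13 were shared, which is 2.16% of 601 in the control (1.16 to 3.67%) and 2.05% of 635 with anti-CD137 (1.09 to 3.48%). For other V segments pooled, 6.50% of 24013 control CDR3s were shared. Segments with more clonotypes have more chances to share, so segments near in number are the closer comparison. TRBV31 shared 3.27% of 612, TRBV26 4.75% of 547 and TRBV20 5.22% of 536. TRBV2 had the second lowest share of 21 segments with at least 100 CDR3s in each treatment, above TRBV23 with 0 of 118. The shared CDR3s had a median of 7 bases between V and J, against 10 in other TRBV2 clonotypes, and 8 of the 13 were in both Teff libraries. The one with the most cells, on TRBJ2-4, had 6 cells from 5 nucleotide sequences, with 1 in control Teff, 3 in anti-CD137 Teff and 2 in anti-CD137 Tpex. The next, on TRBJ2-1, had 2 cells in each Teff library from 1 nucleotide sequence with 1 base between V and J. The other 11 had 3 cells or fewer. No control clonotype of 10 or more cells was among the 13.

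TRBV2 chains were read with fewer UMIs than other β chains, which bears on the rule that picks them. In cells with 1 TRB, where that rule makes no choice, the median TRBV2 chain had 4 UMIs in control Teff, 8 in control Tpex and 10 in control Tex. Chains of other V segments had 9, 15 and 19. With anti-CD137 the medians were 4, 4.5 and 8 for TRBV2 against 9, 6 and 12. TRBV2 was the lowest of 21 or 22 segments with at least 20 cells in 5 of the libraries, and in control Tex TRBV30 was lower, at 8. Over clonotypes in place of cells, the medians in the control were 4, 6 and 9 for TRBV2 against 9, 16.3 and 20. The α chains of the same cells did not differ in this way, with medians of 4, 5 and 6 UMIs in the control for TRBV2 and for other segments alike. With anti-CD137 they were 4, 3 and 6 for TRBV2 and 4, 2 and 4 for other segments.

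Accordingly TRBV2 was often the weaker of 2 chains. Among 298 cells with TRBV2 and a TRB of another segment, TRBV2 had more UMIs in 76 (25.5%, 20.7 to 30.8%), fewer in 190 and as many in 32. The rule therefore leaves out 210 cells that have TRBV2 only as their second TRB, 73 of them in control Teff and 99 in anti-CD137 Teff. In anti-CD137 Tpex alone TRBV2 had more UMIs in most such cells, 15 of 26. TRBV2 chains with under 3 UMIs were 22.6% of those in control Teff, against 5.20% for other segments, and 22.8% against 3.99% in anti-CD137 Teff. Counting a cell as TRBV2 when either TRB was TRBV2 left the differences between treatments at -9.81 points in Tpex and -11.8 in Tex.

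**Figure D5:**
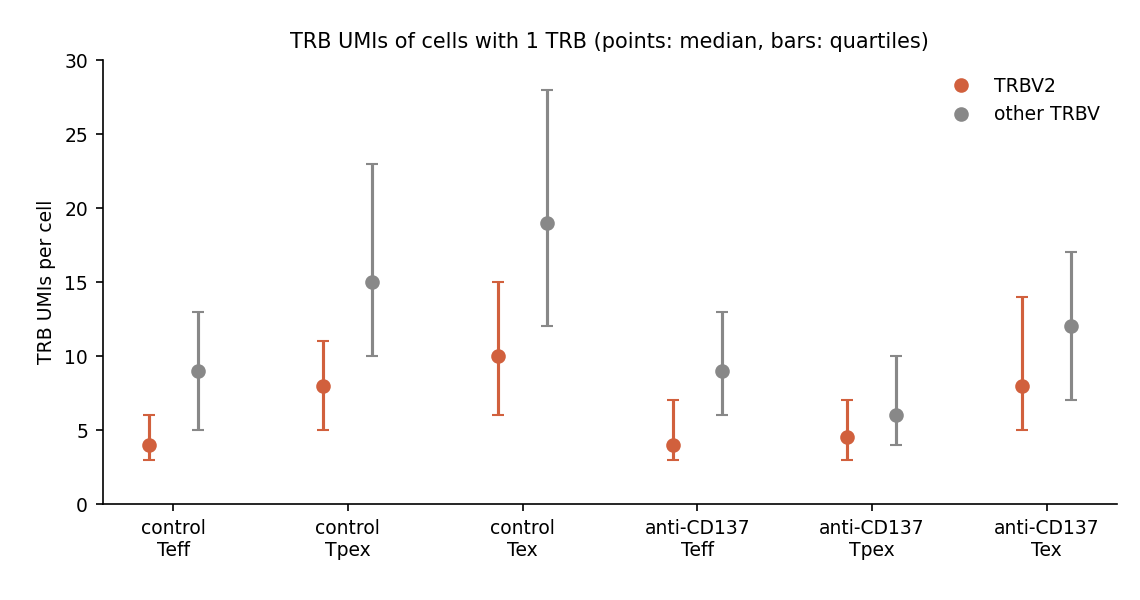
TRB UMIs per cell (y axis; median, with quartiles as bars) of cells with 1 TRB in the 6 libraries (x axis), for TRBV2 and for other V segments. The TRBV2 median is the lower in each library, from 4 against 9 in control Teff to 10 against 19 in control Tex.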

How the data were processed

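Single-cell 5′ libraries of gene expression and of TCR chains were analysed from the deposited tables of contigs and of cells. Cell Ranger 3.0.2 and Seurat 4.0.0 were used by the authors with the mm10 build, per the submitters' processing notes. Per the file headers, the contig table gives V, J and CDR3 with the count of UMIs and reads of each chain, and the cell table gives the count of RNA UMIs per cell and a cluster number; the filters on cells and doublets are not stated in these sources, and no doublet caller was run. For each cell the TRB and TRA with the most UMIs were kept, with ties broken by reads. Combined V names were kept as deposited. Members, lists and rules were chosen with earlier results of these data known. With 1 library per group no test was run. Exact 95% binomial intervals were computed, and intervals of differences were built from their limits by Newcombe's square-and-add formula. Python 3.11.15 was used with scipy 1.17.1, pandas 2.3.3 and numpy 2.4.6, and the code was tested on simulated data. Germline pieces were read from GENCODE M21, and a junction was split by the longest match from each end. Segments under 1% were not compared. Named clonotypes were taken from a list of the 3 largest of each library, plus any found in all 3 subsets of a treatment. Ties went by alphabet, and not every clonotype of the list is described. D and E were added. Alternatives changed the chain rule, the UMI minimum, thinning, clonotype definition and the largest clonotypes left out. Cells above their library's median UMI count were added as an alternative after seeing the data. No values per gene were used. P-values are not given.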

Additional observations from a re-analysis of the deposited data

Results flagged for a closer look

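The difference between treatments went in opposite directions in the PD1+ subsets and in Teff. By cells, anti-CD137 minus control was -9.82 points in Tpex and -11.9 points in Tex, against 0.231 in Teff. Without the largest TRBV2 clonotype of each library it was -1.09 in Tpex and -2.45 in Tex, against 0.213 in Teff. By clonotypes it was -0.855 in Tpex and -0.742 in Tex, against 0.198 in Teff. Whether the subsets differ in this was not tested, since each population has 1 library, and each Teff interval and the Tex interval by clonotypes held 0.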

How the results depend on the processing

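No paired analysis was possible because each population has 1 library, and for the same reason no replicate could be left out. Of 98 alternative values over 23 results, 85 moved by less than the counting interval or had no such interval, and 13 moved by more. Of those whose interval had lain off 0, 0 reversed. The 85 include 4 values of the difference in mean CDR3 length, which had no counting interval. By cells that difference was 0.401 amino acids, against 0.747 by clonotypes. Also among the 85 are the shares by cells in thinned libraries, 0.231 points in Teff, -9.82 in Tpex and -11.9 in Tex. They equal the main values by construction, so they could not move. By cells the Tpex difference was -10.6 points in cells with 1 TRB and -7.73 in cells above their library's median UMI count. By clonotypes of at least 2 cells it was -2.13 in Tpex and -2.46 in Tex (-4.54 to -0.595), where the interval over all clonotypes had held 0. Without the largest clonotype the Tex difference was -1.41 without the 3 largest, and -1.85 above the median UMI count. By cells the TRBJ1 share was -14.3 points from that of other segments. The share of control Tpex TRBV2 cells in cluster 1, minus that of other segments, was -3.50 once per clonotype, -1.37 without the largest and -4.00 above the median UMI count, against 0.748 over all cells. In cluster 3 of control Tex it was -10.9 once per clonotype and 1.75 without the largest, against -1.09, and in cluster 4 of anti-CD137 Tex -5.05 once per clonotype, against -23.1. The causes were not tested. Anti-CD137 Tpex and Tex, with 65 and 55 TRBV2 cells, limit what can be seen within them.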

Other observations

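Barcodes with TCR chains but outside the cell table gave the same order of TRBV2 shares between treatments in the PD1+ subsets. TRBV2 was 7.40% of 1838 TRB barcodes in control Tpex and 5.43% of 276 in control Tex, and 0.703% of 11950 and 0.439% of 2960 with anti-CD137. Clonotype A made up 118 of the 136 TRBV2 barcodes in control Tpex and 8 of the 15 in control Tex. Counted by clonotypes, TRBV2 was 1.21% of 1159 in control Tpex and 1.29% of 4878 in anti-CD137 Tpex, and 5.0% of 140 in control Tex and 1.22% of 905 in anti-CD137 Tex.

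Among partners, keeping only cells with 1 TRA and 1 TRB left 946 TRBV2 pairs and 34341 others. TRAV13-4-DV7, TRAJ24 and TRAJ52 remained at least 1.5-fold higher and TRAJ30 and TRAJ40 lower with intervals apart. TRAV7D-4, at 0.951%, was then under the 1% needed for a comparison, and TRAJ9 was also lower, at 1.80% against 3.41%.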
